A study of Mus musculus with 16 samples.

Results

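Whole skin and epidermis of unexposed hairless mice were compared at week 25 of a study of UVB-driven skin cancer, to show which transcripts belonged to the epidermis and which to the tissue beneath it. The 4 libraries were taken by their labels, from 16 in the series: 2 of whole skin and 2 of epidermis. All came from skin of female SKH-1 mice, a hairless strain, held for 25 weeks with no agent given. The labels give neither the age of the mice nor whether the 2 libraries of a tissue stem from different mice. P-values here therefore measure only the spread between libraries, pooled over the 8 groups of the series. The numbers 0 and 1 of the sample titles name the libraries below.

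Skin is built of layers. In the epidermis, basal keratinocytes divide on a basement membrane, and their daughters pass through a spinous and a granular layer to become the dead, lipid-sealed cornified layer that keeps water in. Langerhans cells, T cells, Merkel cells and melanocytes sit among the keratinocytes, and hair follicles with their sebaceous glands grow down from them. Below lie the dermis, whose fibroblasts make collagen and elastic fibres, then fat and a thin sheet of striated muscle, the panniculus carnosus, with vessels, nerves and immune cells throughout. Whole skin holds the epidermis as well as everything under it.

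Sequencing gave 7959503 and 4854612 counts in whole skin 0 and 1, and 6503183 and 7175363 counts in epidermis 0 and 1. At least 1 count was found for 17838 and 17432 genes in the whole skin libraries and for 15726 and 15476 in the epidermis libraries. Levels are given in CPM, the depth-scaled read count, with library sizes set by the trimmed mean of M-values over the 16 libraries. CPM is a share of a library, so fewer cells of a type and less RNA per cell cannot be told apart in these bulk samples. The authors removed duplicate reads before counting. Among genes whose exons span 500 bases or more, none in the 4 libraries rose above 2.11 counts per base of exon. The shorter gene Krtdap, of 456 bases, reached 2.36 counts per base in epidermis 0. A ceiling of this kind flattens the fold of the most abundant genes.

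The whole skin libraries stood further apart than the epidermis libraries did. Their counts differed by a chi-square of 46.2 per degree of freedom, against 6.93 for the week 25 control epidermis pair and at most 19.7 in any other group. The spread behind the p-values is pooled over all groups, so it may understate that of the whole skin pair. Of 12294 genes averaging at least 5 CPM in whole skin, 868 were over 2-fold higher in whole skin 0 and 1362 in whole skin 1; in epidermis the counts were 199 and 69 of 10325. The summed level of 38 skeletal muscle fibre genes was 7500 CPM in whole skin 0 and 17000 CPM in whole skin 1. A second set of genes set whole skin 1 apart: Chil4, a chitinase-like protein, had 0.31 and 316 CPM in whole skin 0 and 1, against 0.337 and 0.462 CPM in epidermis. Il19 and Il24, cytokines of the interleukin 10 family, had 0 and 0.31 CPM in whole skin 0 and 41.7 and 53.3 CPM in whole skin 1, against at most 0.169 CPM in epidermis. The collagenase gene Mmp13 had 6.09 and 181 CPM, and Ankrd1, a muscle and injury response gene, 1.14 and 71.4 CPM in whole skin 0 and 1. In the 2 UVB tumors of the series these genes were likewise high, with 326 and 341 CPM of Chil4, 77.2 and 81.0 CPM of Il19, 271 and 192 CPM of Mmp13, and 141 and 145 CPM of Ankrd1. In the 6 UVB epidermis libraries Chil4 ran between 9.22 and 392 CPM (median 163) and Il19 between 4.89 and 32.7 CPM, and in the 6 control epidermis libraries Chil4 reached 98.9 CPM. The labels record no agent for whole skin 1, and neither the cause of the difference nor the label itself could be tested. Each whole skin mean and fold below includes this library, so "unexposed" rests on the label. Chil4, Il19 and Il24 were called higher in whole skin, but without whole skin 1 their log2 fold changes were -0.36, -2.30 and 4.0 and none of the calls held. Leaving out epidermis 1 also ended the calls of Chil4 (8.76) and Il19 (6.73), and leaving out epidermis 0 that of Il19 (9.96).

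**Figure D1:**
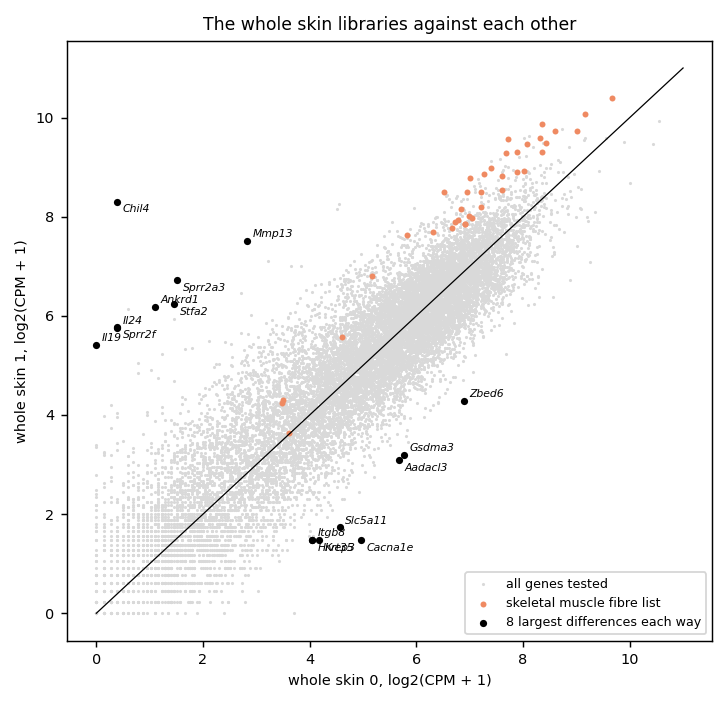
Each point is a gene tested, placed by log2(CPM + 1) in whole skin 0 (horizontal axis) and whole skin 1 (vertical axis), with equality as a line. The 8 largest differences each way are named in black; Chil4, at 0.31 and 316 CPM, lies far to the upper left, and the skeletal muscle fibre list (orange) lies almost wholly above the line.

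Of the genes tested, 55.6% differed between the tissues. By the quasi-likelihood test of edgeR, with p-values of 15126 genes adjusted by Benjamini-Hochberg, 4826 genes (31.9%) were higher in whole skin and 3583 (23.7%) were lower at an adjusted p under 0.05. The rises were the steeper: 2124 called genes were at least 8-fold higher in whole skin, and 199 were at least 8-fold lower. No count at all was found in epidermis for 582 genes tested, and in whole skin for 15. The split depends on scaling: 57.4% of calls were higher in whole skin as reported, 73.9% when library totals alone were used and 71.4% with upper quartile factors. The median of all genes, a log2 fold change of 0.18 as reported, moved to 0.56 and 0.49 under these, so a gene near 0 cannot be called unchanged in amount.

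**Figure D2:**
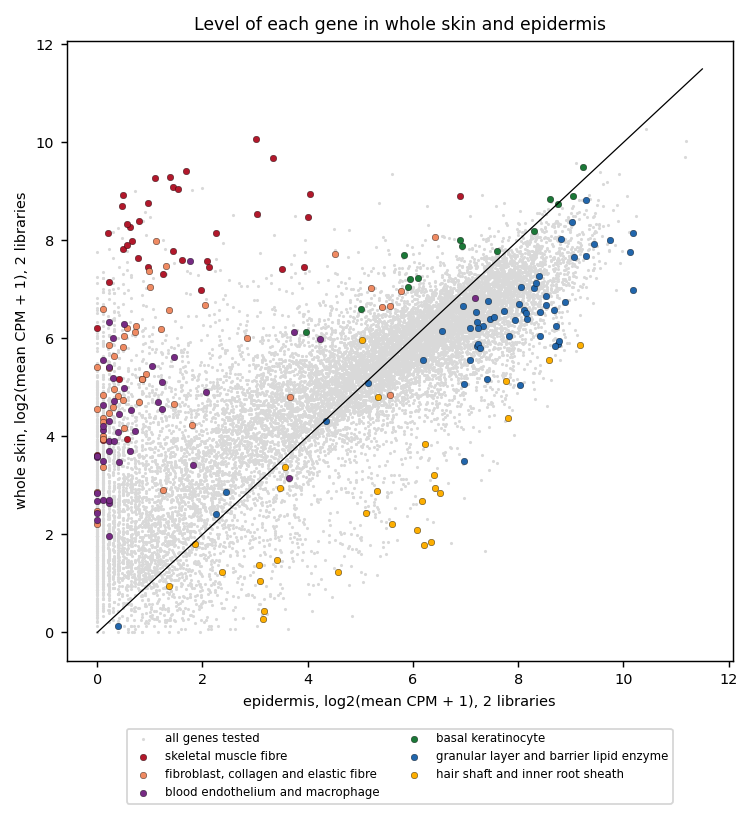
Each grey point is a gene tested, placed by log2(mean CPM + 1) over the 2 whole skin libraries (vertical axis) and the 2 epidermis libraries (horizontal axis), with equality as a line. Muscle, connective tissue, vessel and macrophage genes lie far above the line near the left edge, granular layer and barrier lipid genes lie a short way below it at high level, and hair shaft genes lie furthest below it.

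Skeletal muscle gave the sharpest contrast. All 38 skeletal muscle fibre genes tested were higher in whole skin, against 31.9% of all genes, with a median log2 fold change of 7.77 (7.36 with genes lacking a count in epidermis set at their lower bound), against 0.18 over all genes. Their summed level was 7500 and 17000 CPM in whole skin 0 and 1, against 223 and 240 CPM in epidermis 0 and 1. Myh4, the fast type IIb myosin heavy chain, had 812 and 1344 CPM in whole skin and 9.45 and 4.77 CPM in epidermis (log2 7.25 ± 0.59 standard error, adjusted p = 2.74e-06). The thin filament ruler Neb had 346 and 712 CPM in whole skin, against 1.52 and 2.31 CPM in epidermis, and myosin binding protein Mybpc2 384 and 847 CPM, against 1.18 and 1.08 CPM. Acta1, skeletal alpha-actin, had 260 and 487 CPM in whole skin and 7.25 and 7.24 CPM in epidermis, and creatine kinase Ckm 126 and 259 CPM, against 2.70 and 1.39 CPM. In each of these the whole skin libraries lay far above both epidermis libraries, with whole skin 1 above whole skin 0.

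The 12 steepest rises by the fitted value had no count in epidermis, so their folds are lower bounds, set against 3 counts over the epidermis pair. Mef2c, a transcription factor of muscle that vessels and other cells also use (chr13:83504034-83667079 in mm10), had 93.5 and 342 CPM in whole skin and was at least 765-fold higher. Smyd1, a methyltransferase needed for sarcomere assembly, had 64.8 and 213 CPM and was at least 493-fold higher. Trim63, the muscle ubiquitin ligase MuRF1, had 29.5 and 112 CPM and was at least 247-fold higher. The others included Hfe2, Ppp1r3a, Art1, Csrp3, Trim54, Cox6a2, Smtnl1 and Asb5, all genes of muscle, with bounds between 232-fold (Asb5) and 544-fold (Hfe2). Muscle progenitor and myogenic factor genes were higher in 7 of 7 tested, against 31.9% of all genes, with a median of 8.40, or 4.61 with 6 of them set at their bound. The progenitor genes Pax7 and Myf5, and Chrng, were too low to be tested, so these rises stand without them. Myf6, a myogenic regulator, had 12.9 and 60.0 CPM in whole skin and no count in epidermis, at least 125-fold higher. Cdh15, M-cadherin, had 3.30 and 22.1 CPM and no count, at least 42.2-fold higher. DESeq2 made neither of these last calls (adjusted p = 0.131 and 0.0891). The desmin gene Des, on the same list, had 225 and 491 CPM in whole skin and 0.337 and 1.69 CPM in epidermis.

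Since the muscle fibre genes rose together, 3 of their promoters are shown, each as the 250 bases before the RefSeq start site (GRCm38.p6), read 5′ to 3′ on the gene's own strand. They were chosen after their values and letters were seen. Capitals mark matches to the E-box CANCTG, the letters bound by myogenic regulators such as Myod1, to the M-CAT element CATTCC, bound by TEAD factors, and to the CArG box, bound by serum response factor; both strands were searched and no marked site overlaps another. The Acta1 window is chr8:123894776-123895025, minus strand, that of Myh4 is chr11:67237562-67237811, plus strand, and that of Mybpc2 is chr7:44524670-44524919, minus strand.
Acta1: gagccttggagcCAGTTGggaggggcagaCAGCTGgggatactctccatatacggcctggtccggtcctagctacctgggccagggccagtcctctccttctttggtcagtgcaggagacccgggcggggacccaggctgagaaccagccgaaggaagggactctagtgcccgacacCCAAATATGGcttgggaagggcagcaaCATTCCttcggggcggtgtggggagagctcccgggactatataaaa
Myh4: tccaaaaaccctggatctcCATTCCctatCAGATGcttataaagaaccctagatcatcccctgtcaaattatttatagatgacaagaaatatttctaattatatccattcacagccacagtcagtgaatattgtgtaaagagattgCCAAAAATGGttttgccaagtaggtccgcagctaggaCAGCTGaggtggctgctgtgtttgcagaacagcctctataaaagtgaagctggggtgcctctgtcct
Mybpc2: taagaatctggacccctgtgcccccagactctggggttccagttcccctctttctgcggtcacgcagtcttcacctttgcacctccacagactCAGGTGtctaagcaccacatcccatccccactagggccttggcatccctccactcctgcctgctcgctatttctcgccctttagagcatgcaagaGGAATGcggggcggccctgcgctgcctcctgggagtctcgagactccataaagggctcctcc
Acta1 and Myh4 hold all 3 motifs, with the CArG box beginning 73 and 104 bases before the start; Mybpc2 holds an E-box and an M-CAT element and no CArG box in this window. Of the 28 muscle fibre genes with a promoter in the RefSeq table, 18 held an E-box (64.3%), 9 an M-CAT element (32.1%) and 3 a CArG box (10.7%). Over the 11383 tested genes with a promoter the shares were 39.6%, 11% and 1.23%. Lists outside skeletal muscle reached similar shares: an E-box was found in 8 of 10 spinous promoters (80.0%) and 13 of 21 adipocyte promoters (61.9%), and M-CAT in 4 of 8 Schwann cell and nerve promoters (50%). A match is only a match of letters.

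Dermal connective tissue was nearly as distinct. Of 22 fibroblast genes tested, 21 were higher in whole skin (95.5%, against 31.9% of all genes) and 0 lower. Their median log2 fold change was 6.49 (6.12 with 2 genes at their bound). Dcn, the small proteoglycan decorin, had 112 and 220 CPM in whole skin, against 1.01 and 0.924 CPM in epidermis (log2 7.39 ± 0.53, adjusted p = 1.42e-06). The platelet-derived growth factor receptor Pdgfra had 25.6 and 44.8 CPM in whole skin and 0.675 and 0.924 CPM in epidermis. Dermatopontin, Dpt, had 71.0 and 193 CPM in whole skin and 1.69 and 0.308 CPM in epidermis. The 1 member not called was Dpp4, the peptidase CD26, with 16.1 and 39.1 CPM in whole skin, against 36.3 and 56.1 CPM in epidermis (log2 -0.76, adjusted p = 0.0778); without whole skin 1 it was -1.53 and called lower, as it was without epidermis 0 at -1.07.

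Among collagen and elastic fibre genes, 26 of 27 were higher (96.3%, against 31.9% of all genes) and 0 lower. Their median was 6.85 (6.55 with 3 at their bound). Col3a1 had 176 and 330 CPM in whole skin and 2.02 and 0.308 CPM in epidermis, and Col1a2 had 136 and 220 CPM, against 2.02 and 0.924 CPM. Col6a2, a chain of the microfibrillar collagen VI, had 34.6 and 49.4 CPM in whole skin and no count in epidermis, at least 166-fold higher. Not every matrix gene was so restricted: Postn, the matricellular protein periostin, had 246 and 291 CPM in whole skin, against 104 and 64.1 CPM in epidermis (log2 1.67 ± 0.26, adjusted p = 0.00017). Tnxb, a matrix glycoprotein that shares its locus with other genes, had 136 and 65.8 CPM in whole skin and 53.3 and 38.8 CPM in epidermis and was not called (log2 1.14, adjusted p = 0.0679), though it was without whole skin 1 (1.56). All 16 mesenchymal transcription factors tested were higher in whole skin, against 31.9% of all genes, with a median of 7.10, or 4.53 with 6 at their bound. Tbx15, which patterns dermal and muscle tissue, had 64.8 and 188 CPM in whole skin and 2 reads in all in epidermis, a ratio of 682 with a 95% counting interval of 189 to 5640. Zeb2, a repressor of epithelial genes, had 44.0 and 72.3 CPM, against 0.169 and 0.308 CPM, a ratio of 225 (76.7 to 1090).

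**Figure D3:**
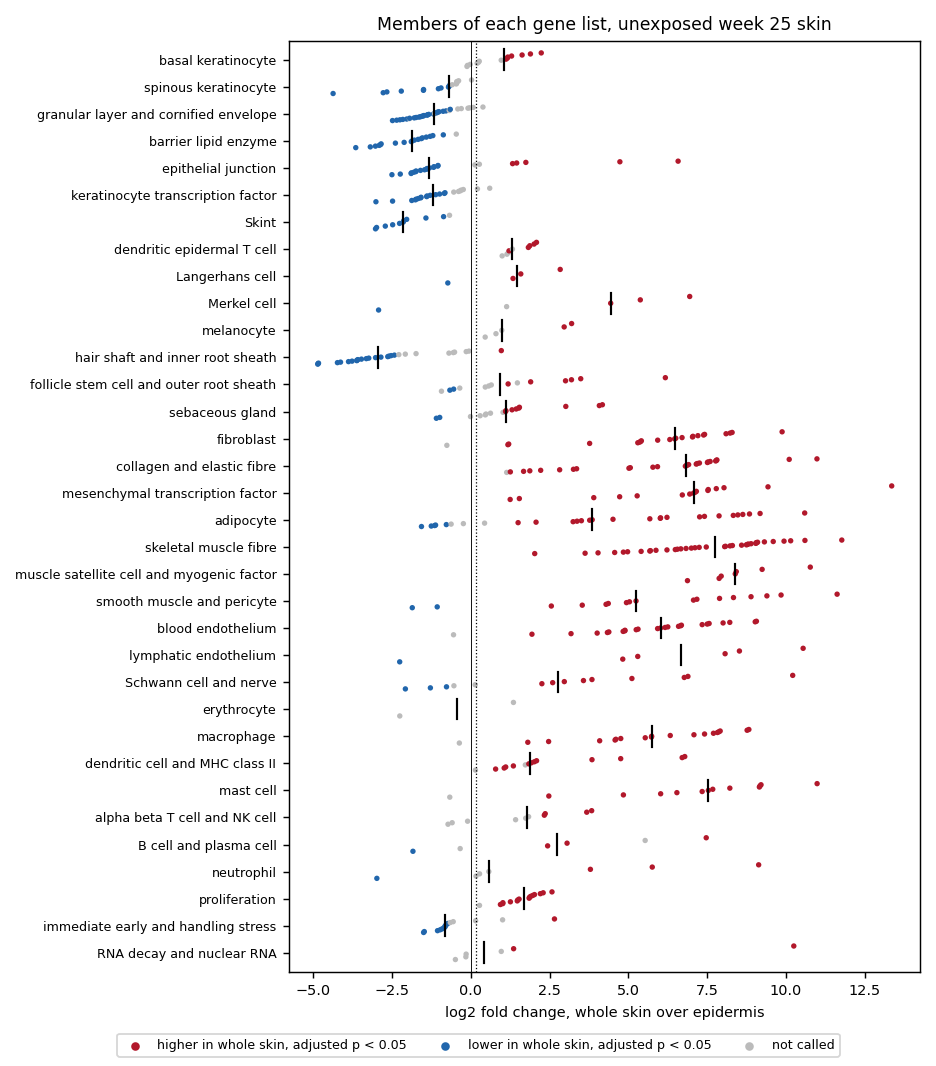
Each point is a tested member of a gene list, placed by its log2 fold change, whole skin over epidermis; red points were called higher in whole skin, blue points lower and grey points not called. Short black bars are list medians and the dotted line is the median of all genes, 0.18; muscle, connective tissue, vessel and mast cell lists lie far to the right, and spinous, granular, barrier lipid, Skint and hair shaft lists to the left.

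Most fat genes were higher in whole skin, and a few were lower. Of 29 adipocyte genes, 21 were higher in whole skin and 5 lower (72.4% and 17.2%, against 31.9% and 23.7% of all genes), with a median of 3.85. The fat cell hormone Adipoq, adiponectin, had 61.1 and 182 CPM in whole skin, against 0.506 and 0 CPM in epidermis, a ratio of 436 (149 to 2120). Lep, the satiety hormone leptin, had 17.6 and 46.7 CPM in whole skin and no count in epidermis, at least 117-fold higher. Pck1, phosphoenolpyruvate carboxykinase, had 28.6 and 89.6 CPM in whole skin and 0.169 and 0 CPM in epidermis, and the insulin-responsive glucose transporter Slc2a4, which muscle also makes, 57.8 and 216 CPM, against 0.506 and 0.308 CPM. Car3, the carbonic anhydrase abundant in fat and muscle, had 259 and 477 CPM in whole skin and 7.59 and 2.31 CPM in epidermis. The members that fell included genes of lipid enzymes. Dgat2, which makes triglyceride, had 120 and 196 CPM in whole skin, against 480 and 455 CPM in epidermis (log2 -1.57 ± 0.26, adjusted p = 0.00029). Acsl1, which activates fatty acids, had 207 and 246 CPM, against 527 and 556 CPM, and the transcription factor Cebpa 130 and 133 CPM, against 292 and 291 CPM. The remaining 2 were Pnpla3 and Lgals12, and 3 members fell without epidermis 1.

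Blood endothelial genes were low in epidermis. Among them, 24 of 25 were higher in whole skin (96%, against 31.9% of all genes) and 0 lower. Their median was 6.02 (5.25 with 5 at their bound), with summed levels of 293 and 579 CPM in whole skin, against 29.0 and 17.9 CPM in epidermis. Pecam1, the junction protein CD31, had 28.9 and 56.0 CPM in whole skin and 1.18 and 0.924 CPM in epidermis. The water channel gene Aqp1 had 47.1 and 108 CPM in whole skin, against 0.843 and 0 CPM in epidermis (log2 7.50 ± 0.92, adjusted p = 3.07e-05). Flt1, a receptor for vascular endothelial growth factor, was the member not called, at 6.61 and 9.10 CPM in whole skin and 13.5 and 9.39 CPM in epidermis. Lymphatic genes were higher in 5 of 6 tested and lower in 1 (83.3% and 16.7%, against 31.9% and 23.7% of all genes). Their sums were 140 and 145 CPM in whole skin, against 455 and 358 CPM in epidermis, where Sema3d made up nearly all of it. The hyaluronan receptor Lyve1 had 4.13 and 16.8 CPM in whole skin and 0.169 and 0.308 CPM in epidermis, and Pdpn, podoplanin, 17.8 and 44.4 CPM and no count, at least 114-fold higher. The lymphatic gene that fell was Sema3d, a secreted guidance cue, with 109 and 60.0 CPM in whole skin, against 455 and 357 CPM in epidermis.

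Of 17 smooth muscle and pericyte genes, 15 were higher in whole skin and 2 lower (88.2% and 11.8%, against 31.9% and 23.7% of all genes). Their median was 5.24 (4.52 with 5 at their bound), with sums of 551 and 869 CPM in whole skin, against 403 and 527 CPM in epidermis. Acta2, smooth muscle actin, had 70.8 and 103 CPM in whole skin, against 3.21 and 1.39 CPM in epidermis, and Lmod1, a smooth muscle actin nucleator, 28.5 and 109 CPM, against 0.169 and 0 CPM. The falls were the receptor Notch3, which spinous keratinocytes also carry, with 124 and 62.1 CPM in whole skin and 292 and 388 CPM in epidermis, and Ndufa4l2, a mitochondrial protein, with 45.3 and 56.0 CPM, against 89.1 and 123 CPM. Nerve and Schwann cell genes were higher in 9 of 14 tested and lower in 3 (64.3% and 21.4%, against 31.9% and 23.7% of all genes), with a median of 2.78. The glial factor Sox10, which melanocytes share, had 7.33 and 16.4 CPM in whole skin, against 0.169 and 0.462 CPM in epidermis (log2 5.11 ± 0.80, adjusted p = 0.000281), and the sodium channel Scn7a had 16 and 33.4 CPM and no count, at least 92.6-fold higher. Erbb3, a neuregulin receptor of Schwann cells that epithelia also make, fell, with 120 and 34.8 CPM in whole skin and 312 and 348 CPM in epidermis. The other falls were Egr2 and L1cam. Both erythrocyte genes tested, Alas2 and Slc4a1, were not called, and their summed level was 2.89 and 12.8 CPM in whole skin, against 4.55 and 3.39 CPM in epidermis. The 4 globin genes listed, Hba-a1, Hba-a2, Hbb-bs and Hbb-bt, had no count in either tissue. They were not tested, so the blood content of the tissues could not be compared through them.

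RNA of tissue macrophages and mast cells was found in whole skin and hardly in epidermis. Of 19 macrophage genes, 18 were higher in whole skin (94.7%, against 31.9% of all genes) and 0 lower, with a median of 5.74. Mrc1, the mannose receptor of resident macrophages, had 44.2 and 115 CPM in whole skin, against 0.337 and 0 CPM in epidermis, a ratio of 437 (121 to 3610). Lysozyme, Lyz2, had 146 and 238 CPM in whole skin and 3.88 and 0.924 CPM in epidermis (log2 6.33 ± 0.52, adjusted p = 2.87e-06). The complement chain C1qc had 23.3 and 59.6 CPM, against 0.169 and 0.154 CPM.

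Mast cell genes were higher in 12 of 13 tested (92.3%, against 31.9% of all genes), with a median of 7.54, or 5.53 with 6 at their bound. Cpa3, the mast cell carboxypeptidase, had 22.6 and 61.9 CPM in whole skin and no count in epidermis, at least 153-fold higher. The chymase gene Mcpt4, which has near-identical relatives, had 35.4 and 80.5 CPM, against 0 and 0.154 CPM, a ratio of 645 (115 to 25500). Mrgprb2, a receptor of connective tissue mast cells, was not called and was higher in library 0 of each tissue, at 35.9 and 6.96 CPM in whole skin, against 62.1 and 7.24 CPM in epidermis (log2 -0.67, adjusted p = 0.498). It was 0.05 without whole skin 1 and 1.54 without epidermis 0. The summed mast cell level was 213 and 413 CPM in whole skin, against 68.3 and 11.7 CPM in epidermis, where most of it was Mrgprb2.

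Dendritic cell and MHC class II genes were higher in 12 of 14 tested (85.7%, against 31.9% of all genes), with a median of 1.88. Langerhans cells of the epidermis also make many of them. Itgax, the integrin CD11c, had 111 and 65.5 CPM in whole skin, against 9.28 and 3.08 CPM in epidermis, and the dermal dendritic cell lectin Cd209a 6.91 and 14.5 CPM, against 0.169 and 0 CPM. The invariant chain Cd74 had 179 and 211 CPM in whole skin and 143 and 83 CPM in epidermis (log2 0.79 ± 0.26, adjusted p = 0.0196), and lost its call without whole skin 1 (0.66) or without epidermis 1 (0.41). Genes of alpha beta T cells and natural killer cells were higher in 4 of 10 (40.0%, against 31.9% of all genes), among them the interleukin 7 receptor Il7r, with 48.5 and 24.1 CPM in whole skin and 4.05 and 1.08 CPM in epidermis, and Cd4, with 6.3 and 4.46 CPM, against 0.506 and 0.308 CPM. Without epidermis 1, 2 of 12 tested were called higher. B and plasma cell genes were higher in 3 of 6 and lower in 1 (50% and 16.7%, against 31.9% and 23.7% of all genes). Their median of 2.75 was 0.56 without whole skin 1, and fewer rises were called without epidermis 0 or without epidermis 1. The immunoglobulin joining chain Jchain had 18.1 and 46.7 CPM in whole skin, against 0.169 and 0.154 CPM in epidermis, a ratio of 177 (48.8 to 1470). Neutrophil genes were higher in 3 of 7 and lower in 1 (42.9% and 14.3%, against 31.9% and 23.7% of all genes). Their median log2 fold change was 0.57, and between 0.30 and 1.12 without 1 library. Csf3r, the granulocyte growth factor receptor, had 8.57 and 14.8 CPM in whole skin and no count in epidermis, at least 44.9-fold higher. The gelatinase Mmp9 had 26.0 and 130 CPM, against 5.57 and 5.54 CPM. Cxcr2, a chemokine receptor, fell, with 1.65 and 13.9 CPM in whole skin and 40.1 and 75.3 CPM in epidermis.

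Basal keratinocyte genes were higher in whole skin in 7 of 14 (50%, against 31.9% of all genes) and lower in 0, with a median log2 fold change of 1.04. Krt14 and Krt5, the keratin pair of basal cells, were not called and overlapped between the tissues. Krt14 had 344 and 507 CPM in whole skin, against 443 and 418 CPM in epidermis (log2 -0.02, adjusted p = 0.935), and Krt5 412 and 551 CPM, against 544 and 505 CPM (log2 -0.12, adjusted p = 0.594). Both are close to the counting ceiling, and their signs turned under other scalings and without whole skin 0, when Krt14 was 0.23 and Krt5 0.07. Bnc1, a zinc finger protein of basal cells, had 69.3 and 69.2 CPM in whole skin, against 15.9 and 13.5 CPM in epidermis (log2 2.23 ± 0.43, adjusted p = 0.000792). P-cadherin, Cdh3, which marks basal cells and hair matrix, had 104 and 88.9 CPM in whole skin and 35.4 and 27.1 CPM in epidermis. Itga6, an integrin that binds basement membrane laminin, had 244 and 267 CPM in whole skin, against 123 and 113 CPM in epidermis. Itga3, Lama3 and Lamb3 also rose; Krt15, Trp63, Itgb4, Col17a1 and Dst were not called. Without epidermis 1, 4 of the 14 were called higher, and Itga6 (1.02) was not among them. By abundance in epidermis the basal genes had medians of 1.29 over 5 genes at 0.02 to 0.1 counts per base and -0.07 over the 2 genes above 1. All genes tested followed abundance in the same way, with medians of 0.25 and -0.95 in these ranges.

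Spinous layer genes fell in 11 of 18 (61.1%, against 23.7% of all genes) and rose in 0, with a median of -0.70. Their summed level was 3270 and 4580 CPM in whole skin, against 8240 and 7940 CPM in epidermis. The steepest falls were Krt2, a keratin of late spinous cells, with 5.37 and 2.14 CPM in whole skin and 110 and 54.2 CPM in epidermis (log2 -4.37 ± 0.93, adjusted p = 0.00152), and Krt78, with 71.8 and 62.8 CPM, against 456 and 472 CPM (log2 -2.78 ± 0.24, adjusted p = 4.03e-06). Dsg1b, a desmosomal cadherin with close relatives beside it, had 35.5 and 36.4 CPM in whole skin and 199 and 258 CPM in epidermis. The main spinous keratins fell least, Krt1 by 0.69 and Krt10 by 0.68 on the log2 scale, and both calls were lost without whole skin 0 (-0.45 and -0.46), without epidermis 0 (-0.71 and -0.67), without epidermis 1 (-0.73 and -0.76), under library totals alone (-0.31 and -0.30), with upper quartile factors (-0.38 and -0.37) and when only the 4 libraries were fitted (-0.70 and -0.69).

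Granular layer and cornified envelope genes fell in 24 of 36 (66.7%, against 23.7% of all genes) and rose in 0, with a median of -1.17. Ivl, the envelope scaffold involucrin, had 77.0 and 72.8 CPM in whole skin, against 431 and 410 CPM in epidermis (log2 -2.49 ± 0.33, adjusted p = 5.11e-05). Loricrin, Lor, the main envelope protein, had 69.8 and 112 CPM in whole skin and 270 and 297 CPM in epidermis. Transglutaminase Tgm1, which cross-links them, had 88.6 and 123 CPM, against 483 and 460 CPM. Flg2, a filaggrin-like protein, had 223 and 211 CPM in whole skin, against 1163 and 1059 CPM in epidermis, and Casp14, the protease that processes filaggrin, 184 and 226 CPM, against 634 and 606 CPM. The 12 not called included 5 small proline-rich genes (Sprr1a, Sprr1b, Sprr2d, Sprr3 and Sprr4) and 5 late envelope genes of the Lce1a and Lce3 groups, families whose near-identical members can share reads. Rptn and Crct1 were the others. The summed level was 2940 and 4640 CPM in whole skin and 10300 and 10400 CPM in epidermis.

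The lipid barrier showed the most uniform fall of the epidermal lists. Of 19 barrier lipid enzyme genes 18 were lower in whole skin (94.7%, against 23.7% of all genes), with a median of -1.86. Their sums were 2030 and 2070 CPM in whole skin, against 7350 and 7340 CPM in epidermis. Abca12, the lipid transporter of lamellar granules, had 143 and 110 CPM in whole skin, against 1162 and 1154 CPM in epidermis (log2 -3.19 ± 0.27, adjusted p = 3.59e-06). Alox12b, the lipoxygenase that begins the binding of ceramide to the envelope, had 68.3 and 53.2 CPM in whole skin and 448 and 430 CPM in epidermis, and Pnpla1, which makes acylceramide, 67.7 and 45.3 CPM, against 412 and 417 CPM. The epidermal lipase gene Lipn had 5.16 and 15.5 CPM, against 116 and 134 CPM. Elovl4, which builds very long fatty acids, was the exception, at 430 and 478 CPM in whole skin and 630 and 622 CPM in epidermis (log2 -0.46, adjusted p = 0.0718).

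Transcription factors of keratinocyte differentiation fell in 15 of 22 (68.2%, against 23.7% of all genes) and rose in 0, with a median of -1.20. Dlx3, a homeobox factor of differentiating cells, had 26.2 and 26.8 CPM in whole skin, against 208 and 220 CPM in epidermis (log2 -3.01 ± 0.22, adjusted p = 1.42e-06). Grhl3, the grainyhead factor of barrier formation, had 92.1 and 61.9 CPM in whole skin and 460 and 406 CPM in epidermis, and Ovol1 and Zfp750, which drive cells out of the basal state, 132 and 113 CPM and 148 and 110 CPM in whole skin, against 420 and 412 CPM and 426 and 436 CPM in epidermis. Junction genes fell in 16 of 23 and rose in 5 (69.6% and 21.7%, against 23.7% and 31.9% of all genes), with a median of -1.31. Among those that fell, the desmosomal plaque gene Dsp had 949 and 724 CPM in whole skin, against 2346 and 2288 CPM in epidermis, and the envelope plakin gene Evpl 180 and 120 CPM, against 596 and 825 CPM. Those that rose were Dsg3, a desmosomal cadherin of the basal layer, with 174 and 116 CPM in whole skin and 55.2 and 50.7 CPM in epidermis, Pkp2, a plaque protein also found in endothelium and heart, with 8.88 and 13.7 CPM, against 0.506 and 0.308 CPM, and Dsg2, Dsc2 and Cldn7. The butyrophilin-like Skint genes fell in 10 of 11 (90.9%, against 23.7% of all genes), with a median of -2.15. Skint6 had 49.7 and 27.1 CPM in whole skin and 312 and 306 CPM in epidermis, and Skint10 31.7 and 26.1 CPM, against 220 and 162 CPM. Skint7 was not called, at 102 and 26.2 CPM in whole skin and 104 and 103 CPM in epidermis (log2 -0.68, adjusted p = 0.337), and was called lower without whole skin 0, at -1.98.

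Promoters of 2 envelope genes that fell, Lor and Ivl, are shown with matches to the AP-1 site TGANTCA in capitals, the letters bound by Fos and Jun dimers, which are known to act on both genes. The Lor window is chr3:92083143-92083392 and that of Ivl chr3:92573736-92573985 (GRCm38.p6, both minus strand, 250 bases before the RefSeq start, 5′ to 3′).
Lor: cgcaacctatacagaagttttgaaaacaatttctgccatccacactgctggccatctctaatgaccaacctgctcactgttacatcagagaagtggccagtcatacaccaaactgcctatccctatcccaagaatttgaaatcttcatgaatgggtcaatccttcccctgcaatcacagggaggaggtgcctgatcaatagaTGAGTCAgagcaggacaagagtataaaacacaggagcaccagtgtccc
Ivl: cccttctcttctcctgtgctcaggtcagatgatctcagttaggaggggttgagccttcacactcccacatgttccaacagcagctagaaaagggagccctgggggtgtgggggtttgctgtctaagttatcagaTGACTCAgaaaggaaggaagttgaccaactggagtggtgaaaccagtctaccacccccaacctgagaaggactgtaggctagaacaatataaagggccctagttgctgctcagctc
The match begins 48 bases before the start in Lor and 116 in Ivl. The AP-1 letters were found in 7 of 33 granular layer promoters (21.2%) and in 4 of 10 spinous promoters (40.0%), against 5.14% of all 11383. Of the other motifs searched in the granular promoters, the E-box was found in 17 of 33 (51.5%, and 39.6% of all), M-CAT in 7 (21.2%, and 11% of all), the CArG box in 0, the AP-2 palindrome GCCNNNGGC was found in 9.09% (19.9% of all), the grainyhead letters AACNGGTT in 3.03% (1.58%), the C/EBP letters TTGCNNAA in 9.09% (8.13%) and the RUNX letters TGTGGT in 6.06% (11.2%).

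**Figure D4:**
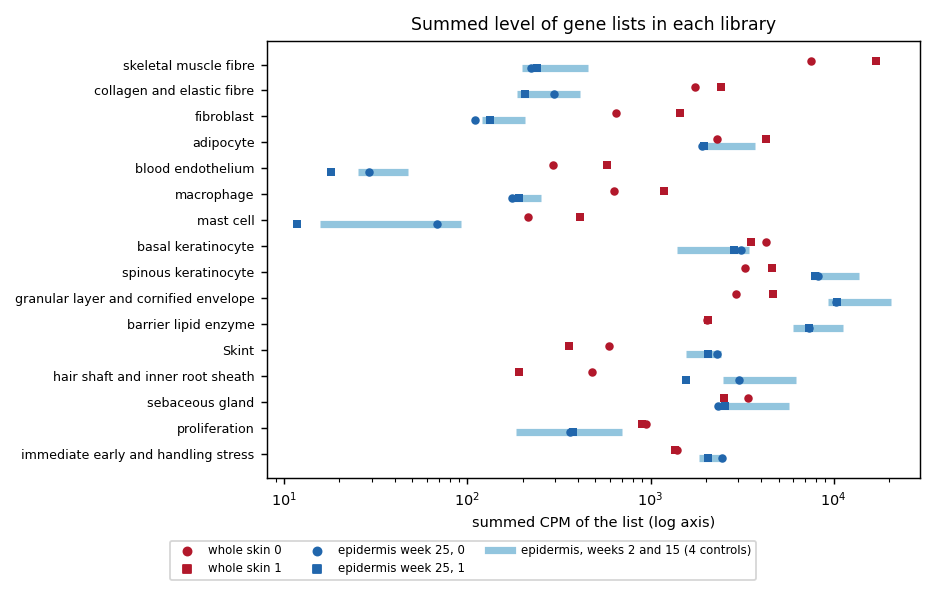
Points are the summed CPM of a gene list in each library on a log axis, whole skin in red above epidermis in blue, circles for library 0 and squares for library 1; pale bars span the 4 control epidermis libraries of weeks 2 and 15. Muscle runs at 7500 and 17000 CPM in whole skin and at 223 and 240 CPM in epidermis, and the spinous, granular, barrier lipid, Skint and hair shaft lists lie left of their epidermis points.

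Genes of the cells that live among the keratinocytes were examined next. Langerhans genes were higher in whole skin in 3 of 4 and lower in 1 (75% and 25%, against 31.9% and 23.7% of all genes). Cd207, the Langerhans lectin langerin, had 78.4 and 46.6 CPM in whole skin, against 28.0 and 13.9 CPM in epidermis (log2 1.58 ± 0.42, adjusted p = 0.00643). Ly75, the endocytic receptor DEC-205, had 12.1 and 6.42 CPM, against 1.35 and 1.23 CPM, and the third was Ltc4s. In the 4 control epidermis libraries of weeks 2 and 15, Cd207 ran between 18.6 and 50.1 CPM, reaching above whole skin 1. Ltc4s ran between 3.75 and 9.82 CPM there, and Ly75, at 0.423 to 5.96 CPM, stayed below both whole skin libraries. The fall was Epcam, an adhesion protein that follicle and other epithelia share, with 166 and 176 CPM in whole skin and 298 and 271 CPM in epidermis; its call was lost without epidermis 0 (-0.69). The call of Cd207 was lost without whole skin 0 (1.15) or epidermis 1 (1.12), and the count of rises was 1 of 4 under either. Genes of dendritic epidermal T cells were higher in 5 of 9 (55.6%, against 31.9% of all genes), with a median of 1.32. Their sums were 259 and 108 CPM in whole skin, against 88.9 and 52.1 CPM in epidermis. In the 4 control epidermis libraries of weeks 2 and 15 the sums were 50.2 to 140 CPM, reaching above whole skin 1. The T cell receptor subunit Cd3d had 23.1 and 15.5 CPM in whole skin and 6.07 and 3.08 CPM in epidermis, and the integrin Itgae, which holds T cells to E-cadherin, 39.7 and 16.8 CPM, against 8.43 and 5.70 CPM. Without epidermis 1 the count was 1 of 9, with Cd3d at 1.63 and not called, without whole skin 0 it was 2, and without whole skin 1 it was 8. Most of these genes are also made by dermal T cells.

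Melanocyte genes were higher in 2 of 5 (40.0%, against 31.9% of all genes): the pigment enzymes Dct, with 37.3 and 14.8 CPM in whole skin and 2.02 and 4.62 CPM in epidermis, and Tyrp1, with 17.2 and 3.57 CPM, against 1.35 and 0.924 CPM. The call of Dct was lost without epidermis 0 (2.46), and that of Tyrp1 without whole skin 0 (1.64) or epidermis 1 (2.90), while 4 of 6 tested were called higher without whole skin 1 and 4 of 5 under library totals alone. Of 5 Merkel cell genes tested, 3 were higher (Krt8, Krt18 and Isl1) and 1 lower, or 60% and 20%, against 31.9% and 23.7% of all genes. The simple keratins Krt8 and Krt18 had 3.92 and 8.05 CPM in whole skin 0 and 31.8 and 57.3 CPM in whole skin 1, against at most 0.506 CPM in epidermis, and Chga, chromogranin A, had 5.37 and 6.42 CPM in whole skin, against 37.6 and 51.7 CPM in epidermis. The Merkel genes Krt20, Atoh1 and Sox2 were too low to be tested, so the rises of the simple keratins stand without those defining markers.

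Hair shaft and inner root sheath genes fell in 19 of 28 and rose in 1, Lpar6, with a median of -2.94. The shares were 67.9% lower and 3.57% higher, against 23.7% and 31.9% of all genes. Summed levels were 481 and 192 CPM in whole skin, against 3040 and 1570 CPM in epidermis. They were 2480 to 6210 CPM in the 4 control epidermis libraries of weeks 2 and 15. Tchh, trichohyalin of the inner root sheath, had 76.0 and 39.1 CPM in whole skin, against 744 and 413 CPM in epidermis (log2 -3.32 ± 0.67, adjusted p = 0.001). Krt26, a keratin of the inner root sheath, had 3.92 and 1.25 CPM in whole skin, against 117 and 44.2 CPM in epidermis, and Krt72 2.89 and 1.96 CPM, against 95.8 and 50.5 CPM. In each the whole skin libraries lay below both epidermis libraries, with the higher epidermis value in library 0. Of the 28, 9 fell without epidermis 0 (median -2.24) and 10 without whole skin 1 (median -2.53).
Krt26 stands for the keratin and keratin-associated genes of the shaft and sheath. Its promoter, chr11:99337966-99338215 (GRCm38.p6, minus strand, 250 bases before the RefSeq start, 5′ to 3′), is shown with matches to the TATA box letters TATAAA, searched on both strands, in capitals; these letters can also lie within a CArG box.
Krt26: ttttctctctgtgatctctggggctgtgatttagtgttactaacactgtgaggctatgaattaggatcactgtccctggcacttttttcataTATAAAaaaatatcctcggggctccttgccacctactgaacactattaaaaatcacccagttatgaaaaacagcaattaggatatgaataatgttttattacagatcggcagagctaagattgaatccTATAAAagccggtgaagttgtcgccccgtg
The matches begin 158 and 30 bases before the start. TATAAA was found in 13 of 19 hair shaft and inner root sheath promoters (68.4%), in 11 of 33 granular promoters (33.3%) and in 5 of 28 muscle fibre promoters (17.9%), against 7.93% of all.

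Stem cell and outer root sheath genes of the follicle were higher in 6 of 14 (42.9%, against 31.9% of all genes) and lower in 2. Lgr5, the receptor that marks cycling follicle stem cells, had 30.7 and 6.96 CPM in whole skin, against 0.337 and 0.154 CPM in epidermis, a ratio of 91.0 (30.9 to 443). Lrig1, of the upper follicle stem cells, had 225 and 121 CPM in whole skin and 82.8 and 69.6 CPM in epidermis, and the activin antagonist Fst 61.6 and 39.8 CPM, against 7.25 and 3.85 CPM. Lhx2, Tbx1 and Tcf7l1 were the other rises; the falls were Krt79 and Nfatc1, and 0 of 14 fell without epidermis 0, without epidermis 1 or under library totals alone. Sebaceous gland genes were higher in 9 of 17 and lower in 2 (52.9% and 11.8%, against 31.9% and 23.7% of all genes). Soat1, which esterifies cholesterol, had 175 and 107 CPM in whole skin, against 16.5 and 18.3 CPM in epidermis. Mc5r, the melanocortin receptor of sebocytes, had 8.05 and 3.39 CPM, against 0.506 and 0.154 CPM. The lipid droplet gene Plin2, which fat also makes, had 181 and 191 CPM, against 62.9 and 74.2 CPM. In the control epidermis libraries of the earlier weeks Soat1 ran between 31.4 and 280 CPM and Plin2 between 73.2 and 291 CPM. Both ranges reached above both whole skin libraries, while Mc5r stayed below them, at 0.38 to 1.27 CPM. The summed list level was 3420 and 2530 CPM in whole skin, against 2340 and 2540 CPM in epidermis. It was 2380 to 5700 CPM in those earlier libraries. The falls were Fasn, fatty acid synthase, with 279 and 216 CPM in whole skin and 413 and 570 CPM in epidermis, and Acsbg1, with 272 and 148 CPM, against 466 and 432 CPM. The number of rises was 5 without whole skin 0, 4 without epidermis 0 and 5 without epidermis 1.

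**Figure D5:**
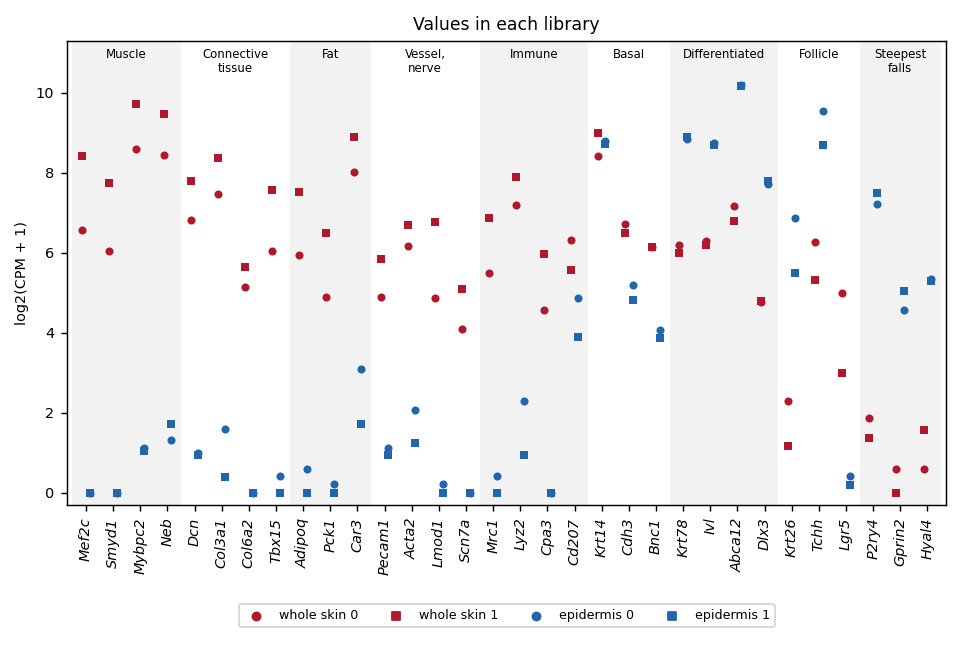
Points are log2(CPM + 1) of selected genes in each library, whole skin in red left of epidermis in blue, circles for library 0 and squares for library 1, with the tissue or layer above. Muscle, connective tissue, fat, vessel and nerve genes are low in epidermis, Krt14 overlaps between the tissues, and differentiated, inner root sheath and steeply falling genes are higher in both epidermis libraries.

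The steepest falls included genes outside the lists. P2ry4, a receptor for extracellular nucleotides (chrX:100590154-100594869), had 2.68 and 1.61 CPM in whole skin, against 149 and 179 CPM in epidermis (log2 -6.18 ± 0.47, adjusted p = 1.99e-06). Gprin2, which binds G protein subunits (chr14:34194441-34201633), had 0.516 and 0 CPM in whole skin and 22.9 and 32.2 CPM in epidermis (log2 -6.36 ± 0.68, adjusted p = 1.26e-05). Hyal4, a hyaluronidase family member that cleaves chondroitin sulphate (chr6:24748367-24766519), had 0.516 and 1.96 CPM, against 39.6 and 38.2 CPM. For these 3 genes the 2 epidermis libraries lay close together and far above whole skin. Of the 12 steepest falls, the other 9 were the keratins Krt72, Krt39 and Krt26, Tchhl1, a relative of trichohyalin, and the keratin-associated genes Krtap5-5, Krtap4-9, Krtap9-1, Krtap4-16 and Krtap4-8. Reads of the Krtap family can be shared among near-identical copies, so its single values are uncertain.

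Per kilobase of exon, counting genes whose exons span 500 bases or more, the most abundant transcripts were muscle genes and a basal keratin in whole skin and keratinocyte genes in epidermis. In whole skin they were Tnni2 (287 CPM per kilobase), Krt14 (256), Tnnc2 (252), Tnnt3 (252) and Pvalb (245), of which Tnni2, Tnnc2 and Tnnt3 encode fast troponins and Pvalb the calcium buffer parvalbumin. In epidermis they were Dmkn (319), Krt77 (319), Krt10 (299), Krt1 (298) and Klk7 (298). Dmkn encodes dermokine, Krt77 a keratin of the spinous layer and Klk7 a peptidase that sheds the cornified layer. The shorter Krtdap, a secreted protein of the spinous layer, had 278 CPM per kilobase in whole skin and 379 in epidermis. Values this close together lie at the ceiling set by duplicate removal, and their order carries no weight. Of the epidermal 5, Krt77 fell most, with 222 and 164 CPM in whole skin, against 573 and 523 CPM in epidermis. The calls of Dmkn (log2 -0.95) and Klk7 (-0.65) were lost without whole skin 0, at -0.62 and -0.45, and without epidermis 0, at -0.92 and -0.63, and that of Klk7 also without epidermis 1, at -0.74. Both were lost under library totals alone (-0.57 and -0.27) and with upper quartile factors (-0.64 and -0.35). Klk7 was further not called in DESeq2 or with its size factors (-0.62 in each), nor when only the 4 libraries were fitted (-0.66).

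Proliferation genes were higher in whole skin in 15 of 16 (93.8%, against 31.9% of all genes), with a median of 1.69. Their sums were 943 and 894 CPM in whole skin, against 364 and 376 CPM in epidermis. Ccnb1, the mitotic cyclin B1, had 28.8 and 33.0 CPM in whole skin and 5.4 and 4.93 CPM in epidermis (log2 2.58 ± 0.46, adjusted p = 0.000439), Cdk1, its kinase, 43.6 and 58.7 CPM, against 12.7 and 12.5 CPM, and Mki67, which coats mitotic chromosomes, 196 and 120 CPM, against 57.2 and 56.7 CPM. Pcna, the replication clamp, was the member not called, at 55.9 and 66.2 CPM in whole skin and 53.0 and 47.9 CPM in epidermis. Immediate early and stress genes, which handling of tissue can raise, fell in 11 of 16 and rose in 1, with a median of -0.81. These shares were 68.8% and 6.25%, against 23.7% and 31.9% of all genes. Junb had 31.5 and 43.0 CPM in whole skin, against 92.4 and 114 CPM in epidermis, the antiproliferative gene Btg2 117 and 98.0 CPM, against 235 and 212 CPM, Klf6 175 and 157 CPM, against 330 and 297 CPM, and the heat shock gene Hspa1b 96.0 and 111 CPM, against 178 and 166 CPM. Fos was not called, at 79.8 and 98.3 CPM in whole skin and 158 and 122 CPM in epidermis. The rise was Nr4a1, an orphan nuclear receptor that muscle also induces, at 43.6 and 94.0 CPM, against 17.7 and 4.16 CPM, a call lost without whole skin 1 (1.99) or epidermis 1 (1.92). Under library totals alone 4 of the 16 stress genes fell. Since this list moved with the tissues beside the keratinocyte lists, its part in them was not tested. Nuclear and decay-sensitive RNAs were higher in 2 of 6 (33.3%, against 31.9% of all genes), Meg3 and Kcnq1ot1, and in 1 of 6 without whole skin 0 or without epidermis 0, with sums of 2820 and 2300 CPM in whole skin and 2900 and 3040 CPM in epidermis.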

How the data were processed

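The deposited table held read counts, in whole numbers, of 24421 genes placed on mm10. The authors used HISAT2, Picard, featureCounts and DESeq2 per the submitters' processing notes, and per the file headers they counted alignments with duplicates removed. Which strand was counted, and from which annotation, is not given in the sources used here, so reads of antisense, overlapping or near-identical genes cannot be told apart. Exon length is another deposited column of the authors' table and served only for levels per kilobase or base.

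edgeR 4.0.16 in R 4.3.3 was run on the counts: filterByExpr (minimum count 10, total 15), TMM scaling, 1 quasi-likelihood fit of the 16 libraries in 8 groups (coefficient of biological variation 23.0%, 8 residual degrees of freedom), Benjamini-Hochberg adjustment over 15126 genes and calls at an adjusted p under 0.05. Fitted log2 values carry a prior count of 0.125 and are given with their standard error. Genes with no count in a tissue are given a lower bound from a floor of 3 counts over its 2 libraries, and those with 1 to 3 counts a ratio with an exact 95% interval, which cover counting error only.

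The comparison, its 34 gene lists and the genes named were chosen with earlier results of these data known, so the lists are described by counts and medians and not tested. Named genes are the 12 largest rises and falls among called genes with at least 5 CPM, no overlap and no predicted model name, up to 5 members per list by smallest p and its most abundant member, the 8 largest differences between whole skin libraries each way and the 5 most abundant genes per tissue; other members are named to account for counts, and some items are not reported here. Of 580 listed genes 571 were in the table. Promoters from RefSeq (GRCm38.p6) were matched by symbol and searched for 9 motifs. The fit was checked on counts simulated with the same spread for every gene and group. That check could not test the effect of the wider spread of the whole skin pair. In addition, 16 alternatives were run, DESeq2 1.42.0 among them.

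The libraries' numbers were not taken to pair the tissues, and the correlation of deviations between same-numbered whole skin and epidermis libraries was 0.078.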

Additional observations from a re-analysis of the deposited data

How the results depend on the processing

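Under the 16 alternatives the numbers of genes called higher and lower in whole skin stayed within 1.5 times 4826 and 3583 except in these: 2227 lower when library totals alone set the scale, 2333 lower when only the 4 libraries compared were fitted, and 2989 higher and 1141 lower when the test was against a fold of 2. Leaving out 1 library gave 3319 to 5059 genes higher and 2906 to 3864 lower. DESeq2 called 4628 and 3543. Of 149 called genes followed singly, 117 kept their call under every alternative that tested them and 32 lost it under at least 1. The fitted direction turned for 5 of the genes followed, whose range without 1 library is given with them. Krt14 was 0.01 with DESeq2's size factors and in DESeq2, 0.36 under library totals, 0.29 with upper quartile factors and -0.33 to 0.23 without 1 library. Krt5 was 0.26 and 0.19 under these scalings, 0.10 against all 6 control epidermis libraries and -0.35 to 0.07 without 1 library. Mrgprb2 ran between -2.31 and 1.54, with 0.05 without whole skin 1. Chil4 ran between -0.36, without whole skin 1, and 9.54, and Il19 between -2.30, without whole skin 1, and 9.96. The causes were not tested. With the library number as a replicate block, 4778 genes were higher and 3596 lower over 16 libraries, and 3920 and 2697 over the 4 compared; the labels do not say whether libraries with the same number share a source. Over the 28 pairs of groups the same-number correlations ran between -0.196 and 0.302, with 9 above 0.1. Precision is limited by 2 libraries a group, by the whole skin pair, and by the counting ceiling for abundant keratinocyte genes, whose falls may be understated. Genes of the keratinocyte lists other than basal had a median of -1.75 at 0.4 to 1 counts per base in epidermis and -1.19 above 1. Over all genes tested the medians in these ranges went the other way, at -0.68 and -0.95. The effect of the ceiling on the falls was not tested.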
